A study of Mus musculus with 9 samples.

Results

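Cultured mouse articular chondrocytes, which build and maintain joint cartilage, were examined for 10 genes linked to liver X receptors, cholesterol efflux and oxysterols. The genes are *Nr1h2* and *Nr1h3*, which encode the liver X receptors LXRβ and LXRα, the LXR targets *Abca1*, *Abcg1*, *Apoe*, *Mylip* and *Lpcat3*, the oxysterol enzymes *Ch25h* and *Cyp7b1*, and the nuclear receptor gene *Rora*. The 10 genes were chosen by symbol, as the rows among the 55471 listed genes whose Ensembl identifiers carry those symbols, and all 10 passed the filter on low counts. RNA came from 9 cultures in 3 groups of 3 (Control, Ad-OSCAR and Ad-OSCAR + 5-ASA), and every culture was of chondrocytes taken at postnatal day 5 from the knee surfaces of WT mice. Per the study's methods, Control cells received the control adenovirus Ad-Control, Ad-OSCAR cells an adenovirus that makes them express OSCAR (a collagen receptor that normal chondrocytes hardly express), and the third group Ad-OSCAR and then 10 µM 5-ASA (5-aminosalicylic acid, an anti-inflammatory drug). All plates were coated with COLpep, a collagen peptide that OSCAR binds, and IL-1β was not added. The labels give 400 MOI (multiplicity of infection, the infectious units added per cell) for 2 h after 3 days of culture and a further 36 h before the drug, whereas the methods give 800 MOI after 2 days. The methods also give 24 h of culture with or without 5-ASA after the infection, a time that the labels do not state. OSCAR was thus driven by a virus at a single dose, 5-ASA was used at a single concentration and without a group that received 5-ASA alone, and the labels do not say which cultures came from separate animals, so the p-values measure the spread between these cultures.

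Liver X receptors are transcription factors that bind oxysterols (oxidized forms of cholesterol) and act as heterodimers with retinoid X receptors. Their classical targets lower the cholesterol load of a cell. ABCA1 and ABCG1 pump cholesterol out to lipoprotein particles, APOE carries it, MYLIP marks lipoprotein receptors for degradation, and LPCAT3 puts polyunsaturated fatty acids into membrane phospholipids. CH25H makes 25-hydroxycholesterol, an LXR ligand, and CYP7B1 hydroxylates that oxysterol further. In osteoarthritic cartilage, CH25H, CYP7B1 and RORα (a receptor that binds sterols) are known as an axis through which cholesterol metabolism acts on chondrocytes.

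The promoters of *Abca1* and *Ch25h* are shown because these genes stand for both sides of the system, the export of cholesterol and the making of the oxysterol. They are RefSeq windows of GRCm38.p6 from 250 bases before to 50 bases after the start of the gene, read 5′ to 3′ on the strand of the gene. In the *Abca1* window (chr4:53159846-53160145, minus strand) the capitals mark a match to the DR4 element that LXR binds, and in the *Ch25h* window (chr19:34475099-34475398, minus strand) a cyclic AMP response element (CRE).
Abca1: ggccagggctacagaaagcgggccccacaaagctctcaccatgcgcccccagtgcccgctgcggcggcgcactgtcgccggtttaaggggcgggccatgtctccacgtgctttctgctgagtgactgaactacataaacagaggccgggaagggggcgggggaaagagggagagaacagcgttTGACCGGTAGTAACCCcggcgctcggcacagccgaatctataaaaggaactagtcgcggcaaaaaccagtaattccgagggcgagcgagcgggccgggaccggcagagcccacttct
Ch25h: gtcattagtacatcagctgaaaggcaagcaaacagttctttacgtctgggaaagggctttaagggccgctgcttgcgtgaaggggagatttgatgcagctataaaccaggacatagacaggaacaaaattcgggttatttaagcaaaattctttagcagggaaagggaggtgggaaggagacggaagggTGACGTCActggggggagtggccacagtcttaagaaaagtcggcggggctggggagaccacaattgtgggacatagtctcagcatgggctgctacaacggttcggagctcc
The DR4 search used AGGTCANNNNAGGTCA on both strands and allowed 3 of its 12 fixed letters to differ. The *Abca1* match lay on the strand opposite to the gene, where it read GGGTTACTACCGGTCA with 3 letters different, 67 bases before the start. Such a match was found in 21.9% of all 32851 windows, so it is common at this stringency. The CRE was searched as TGACGTCA, a motif added after the *Ch25h* window had been read, and began 61 bases before the start of *Ch25h*. It was present in 1.79% of all windows. Windows were found for 8 of the 10 genes (all but *Abcg1* and *Cyp7b1*). DR4 was matched in 1 of the 8 and the CRE in 1 of the 8. The DR4 half-site AGGTCA was also searched and was found in 0 of the 8, beside 16.3% of all windows. The E-box motif CACGTG was found in 1, *Abca1*, 147 bases before the start, beside 7.15% of all windows. All these matches describe the letters of these windows only.

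Library totals ranged from 19733448 to 28192740 estimated counts. *Oscar*, which checks the labels, had 4, 3 and 4 counts in the Control cultures, 187278, 173445 and 179480 in Ad-OSCAR and 91718, 80766 and 94199 in Ad-OSCAR + 5-ASA, and these reads include mRNA made from the virus. *Oscar* was thus 1.96-fold lower in the treated than in the untreated Ad-OSCAR cultures (log2 fold change -0.97, SE 0.06, adjusted p = 1.76e-08). The Control cultures carried the 10 listed marker genes of chondrocytes, all of which were tested. All 10 fell in Ad-OSCAR (median log2 fold change -5.45), while 32.2% of all tested genes were called lower. *Hapln1* changed least (-1.09) and *Ucma* most (-8.21), with *Col2a1* at -3.97 and *Sox9* at -3.06. *Snorc* had 1, 5 and 1 counts in Ad-OSCAR. With 5-ASA 5 of these 10 markers rose and 0 fell, beside 10.4% and 7.38% of all tested genes. *Col9a1* rose by 0.42 and *Col2a1* by 0.28 on the log2 scale with the drug. In bulk RNA, fewer cells of a type and less RNA per cell cannot be told apart. The way of scaling the libraries matters here, because among the genes called in Ad-OSCAR against Control 50.4% were higher with TMM scaling and 62.8% with scaling to the total count. For Ad-OSCAR + 5-ASA against Ad-OSCAR these shares were 58.5% and 29.5%. With TPM (counts per transcript length, scaled to the same sum in each culture), the latter share was 27.4%. For Ad-OSCAR + 5-ASA against Control, where the main share was 49.7%, the widest range was 38.8% with unfiltered TPM to 61.2% with TPM rescaled without *Saa3*. Each call made below for one of the 10 genes between Ad-OSCAR and Control or between the 2 Ad-OSCAR groups was also made, in the same direction, with scaling to the total count.

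Adenoviral OSCAR moved most of the 10 genes, and it moved the oxysterol enzymes and the efflux transporters by far larger factors than the receptors. *Ch25h* rose 9.18-fold, *Abcg1* 6.02-fold, *Cyp7b1* 4.89-fold and *Abca1* 2.53-fold. By edgeR's quasi-likelihood test over all 15362 tested genes, with Benjamini-Hochberg adjusted p below 0.05, 8 of the 10 rose, 1 (*Lpcat3*) fell and 1 (*Nr1h3*) did not pass. In the same comparison 32.7% of all tested genes were called higher and 32.2% lower. The median log2 fold change of the 10 genes was 0.35, against 0.02 over all tested genes. By the limit the study set for OSCAR, a log2 fold change beyond 1.5 with adjusted p below 0.05, 3 of the 10 were higher (*Ch25h*, *Abcg1* and *Cyp7b1*), beside 4.57% of all tested genes, and 5.39% of all tested genes were lower.

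**Figure D1:**
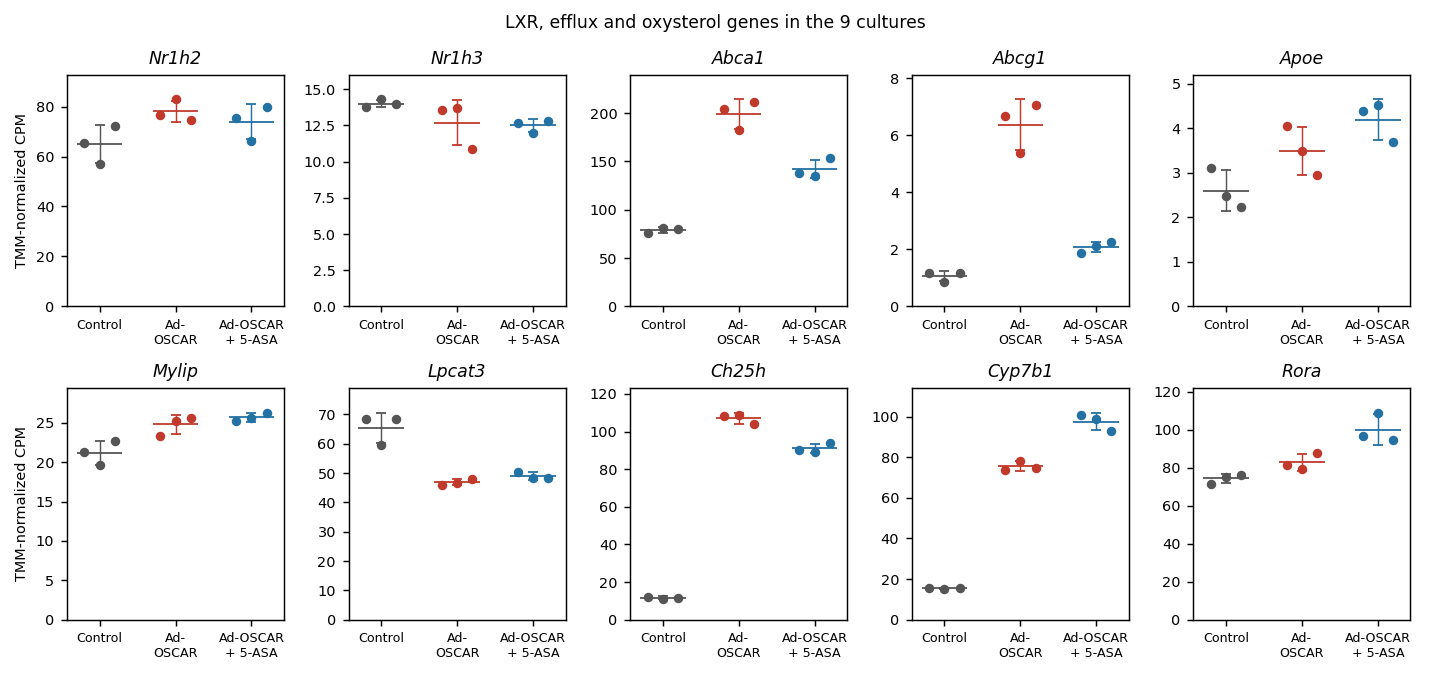
TMM-normalized counts (CPM, vertical axes from 0) of the 10 genes in the 9 cultures, with points for cultures, horizontal lines for group means and bars for 1 SD (n = 3). *Ch25h*, *Cyp7b1*, *Abca1* and *Abcg1* stood higher in every Ad-OSCAR culture than in any Control culture. *Abcg1* in Ad-OSCAR + 5-ASA lay between 1.88 and 2.25 CPM, above Control (0.863 to 1.18 CPM) and below Ad-OSCAR (5.37 to 7.06 CPM).

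5-ASA left the oxysterol enzymes high but brought the transporters down. Between Ad-OSCAR + 5-ASA and Ad-OSCAR, 3 of the 10 genes were lower (*Abcg1*, *Abca1* and *Ch25h*), 2 were higher (*Cyp7b1* and *Rora*) and 5 did not pass, while 7.38% of all tested genes were lower and 10.4% higher. The median log2 fold change of the 10 was 0.02, against 0.00 over all tested genes. The study set a limit of a 1.5-fold change with p below 0.05 for the drug, which its methods word as a comparison with Ad-Control cells. Applied here between the 2 Ad-OSCAR groups, that limit was passed by 1 gene of the 10. This gene (*Abcg1*) was lower, beside 1.87% of all tested genes, and 2.27% of all tested genes were higher. Against Control, Ad-OSCAR + 5-ASA cultures had 8 of the 10 genes higher and 1 lower, with 31.4% and 31.8% of all tested genes called in those directions. *Oscar* was lower in the same treated cultures, and its part in these differences was not tested. The 3 comparisons share cultures and are not independent of each other.

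**Figure D2:**
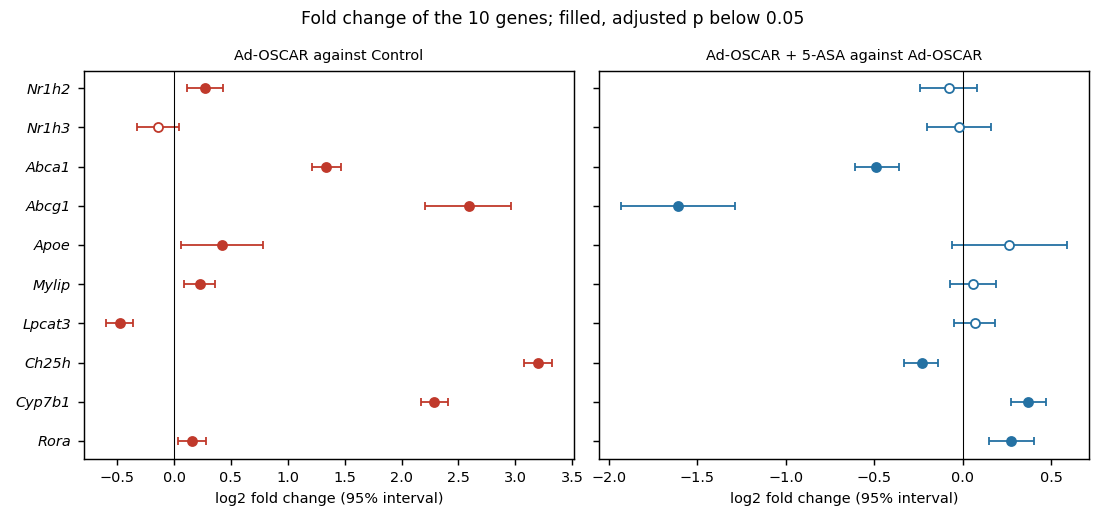
Log2 fold change (horizontal axes) of the 10 genes for Ad-OSCAR against Control (left) and Ad-OSCAR + 5-ASA against Ad-OSCAR (right), with 95% intervals. Filled points have an adjusted p below 0.05; on the left only *Nr1h3* is open, and on the right *Abcg1* at -1.61 lies farthest from 0.

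The receptors themselves changed little. *Nr1h2* (ENSMUSG00000060601.13, chr7:44549616-44553951, minus strand) encodes LXRβ, the widely expressed LXR. It had 65.5, 57.2 and 72.1 CPM (counts scaled to a common library size by TMM) in Control, 76.8, 82.9 and 74.7 in Ad-OSCAR and 75.6, 66.2 and 79.9 in Ad-OSCAR + 5-ASA. Every Ad-OSCAR culture was above every Control culture, whereas the treated cultures overlapped both other groups. The rise with OSCAR was 1.21-fold (log2 fold change 0.27, SE 0.08, adjusted p = 0.00496). This call was lost in limma on log2(TPM + 1) without a filter (0.27, adjusted p = 0.0928). With 5-ASA the log2 difference was -0.08 (95% interval -0.24 to 0.08, adjusted p = 0.523).

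*Nr1h3* (ENSMUSG00000002108.10, chr2:91184061-91202834, minus strand) encodes LXRα, which is itself an LXR target in some cells. Its levels were 13.8, 14.3 and 14.0 CPM in Control, 13.6, 13.7 and 10.9 in Ad-OSCAR and 12.7, 12.0 and 12.8 in Ad-OSCAR + 5-ASA. Control cultures were the highest, but the difference between Ad-OSCAR and Control did not pass the test (log2 difference -0.14, 95% interval -0.33 to 0.04, adjusted p = 0.158). The 2 Ad-OSCAR groups overlapped, at a log2 difference of -0.02 (interval -0.20 to 0.16, adjusted p = 0.907). *Gm13783*, on the same strand, shares 34 exon bases with *Nr1h3*. Per length, *Nr1h2* stood above *Nr1h3* in every group, at 74.5 ± 7.51 against 15.5 ± 1.15 TPM in Control (SD, n = 3).

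Among the efflux transporters, *Abca1* (ENSMUSG00000015243.4, chr4:53030787-53159895, minus strand), whose product loads cholesterol onto lipid-poor apolipoproteins, was the more abundant per length, at 13.5 ± 0.701 TPM against 0.51 ± 0.197 TPM of *Abcg1* in Control (SD, n = 3). It had 75.4, 81.3 and 79.6 CPM in Control, 204, 182 and 211 in Ad-OSCAR and 138, 135 and 153 in Ad-OSCAR + 5-ASA. The 3 groups did not overlap, and the treated cultures lay between the others. *Abca1* rose by 1.34 on the log2 scale with OSCAR (SE 0.06, adjusted p = 1.09e-12). With 5-ASA it was 1.40-fold lower (log2 fold change -0.49, SE 0.06, adjusted p = 1.35e-05), and it stayed 1.80-fold above Control (log2 fold change 0.85, SE 0.06, adjusted p = 8.83e-10).

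*Abcg1* (ENSMUSG00000024030.7, chr17:31057675-31117988, plus strand), whose product moves cholesterol to mature HDL particles, was scarce in Control with 25, 21 and 22 counts. It had 197, 131 and 194 counts in Ad-OSCAR and 49, 58 and 57 in Ad-OSCAR + 5-ASA. As CPM these were 1.18, 0.863 and 1.16 in Control, 6.68, 5.37 and 7.06 in Ad-OSCAR and 1.88, 2.12 and 2.25 with the drug. The groups did not overlap, and the treated cultures lay much nearer to Control than to Ad-OSCAR. The log2 fold change with OSCAR was 2.59 (SE 0.18, adjusted p = 3.69e-10). With 5-ASA *Abcg1* was 3.06-fold lower (log2 fold change -1.61, SE 0.15, adjusted p = 7.36e-07), the greatest change with the drug among the 10 genes. The treated cultures remained 1.97-fold above Control by counts (log2 fold change 0.98, SE 0.21, adjusted p = 0.00053). On the TPM scale that last difference did not pass limma's test (log2(TPM + 1) difference 0.24, adjusted p = 0.222). The mean transcript length that RSEM assigned to *Abcg1* ranged from 2696 to 5832 bases over the cultures and varied within each group, which enters its TPM and not its counts. With so few counts in Control, its interval for OSCAR was the widest of the 10 genes (2.21 to 2.96).

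Of the other 3 LXR targets among the 10 genes, *Apoe* and *Mylip* were called higher with OSCAR and *Lpcat3* lower. Between the 2 Ad-OSCAR groups 0 of the 3 were called. *Apoe* (ENSMUSG00000002985.16, chr7:19696109-19699188, minus strand), the gene of the cholesterol carrier, had 3.11, 2.47 and 2.22 CPM in Control, 4.04, 3.49 and 2.95 in Ad-OSCAR and 4.39, 4.52 and 3.68 in Ad-OSCAR + 5-ASA. The highest Control culture was above the lowest Ad-OSCAR culture. The log2 fold change with OSCAR was 0.42 (SE 0.17, adjusted p = 0.0375), at 42 to 119 counts per culture in these groups. This call was lost in DESeq2 (adjusted p = 0.0724), in limma on TPM with pseudocounts of 1 (adjusted p = 0.109) and 0.1 (adjusted p = 0.107) and without a filter (adjusted p = 0.223), and when any of 4 cultures was left out, namely Control replicate 2 (0.38, adjusted p = 0.109), Control replicate 3 (0.33, adjusted p = 0.14), Ad-OSCAR replicate 1 (0.30, adjusted p = 0.172) and Ad-OSCAR replicate 2 (0.43, adjusted p = 0.0659). With 5-ASA the log2 difference was 0.26 (95% interval -0.06 to 0.59, adjusted p = 0.27), so that *Apoe* did not show the fall of *Abca1* and *Abcg1*. Treated cultures lay 1.61-fold above Control (adjusted p = 0.00162), a call that was lost in 1 of 20 alternatives.

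*Mylip* (ENSMUSG00000038175.10, chr13:45389742-45412022, plus strand), the gene of the ubiquitin ligase that removes lipoprotein receptors, had 21.3, 19.6 and 22.7 CPM in Control, 23.4, 25.3 and 25.6 in Ad-OSCAR and 25.2, 25.6 and 26.3 in Ad-OSCAR + 5-ASA. Control was lowest without overlap, and the 2 Ad-OSCAR groups overlapped. The rise with OSCAR was 1.17-fold (log2 fold change 0.23, SE 0.07, adjusted p = 0.00529). With 5-ASA the log2 difference was 0.06 (95% interval -0.07 to 0.19, adjusted p = 0.6), and its sign changed with total-count scaling (-0.01) and TPM (-0.04).

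*Lpcat3* (ENSMUSG00000004270.13, chr6:124663027-124704418, plus strand), the acyltransferase gene, was the 1 gene of the 10 that fell with OSCAR. It had 68.4, 59.5 and 68.4 CPM in Control, 46.0, 46.5 and 47.9 in Ad-OSCAR and 50.5, 48.3 and 48.2 in Ad-OSCAR + 5-ASA. All 6 cultures that received Ad-OSCAR were below all 3 Control cultures. The fall was 1.40-fold with OSCAR (log2 fold change -0.48, SE 0.06, adjusted p = 4.79e-07). Although the drug-treated cultures did not overlap the untreated ones, their log2 difference of 0.07 (95% interval -0.05 to 0.18, adjusted p = 0.47) did not pass, and it was -0.03 on the TPM scale. *Emg1* on the other strand shares 334 exon bases with *Lpcat3*, and whether strand was used in counting is not given in the sources used here.

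Both oxysterol enzymes rose several-fold with OSCAR, and *Ch25h* rose more than any other of the 10 genes. *Ch25h* (ENSMUSG00000050370.5, chr19:34473778-34475164, minus strand) is a gene of 1 exon. It had 12.3, 11.1 and 11.7 CPM in Control, 108, 109 and 104 in Ad-OSCAR and 90.4, 89.3 and 93.9 in Ad-OSCAR + 5-ASA. The groups did not overlap, and the treated cultures stayed far nearer to Ad-OSCAR than to Control. The log2 fold change with OSCAR was 3.20 (SE 0.06, adjusted p = 2.53e-18). With 5-ASA *Ch25h* was 1.17-fold lower (log2 fold change -0.23, SE 0.05, adjusted p = 0.00141) and still 7.81-fold above Control. The RNA *Gm26902* on the other strand shares 159 exon bases with it.

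*Cyp7b1* (ENSMUSG00000039519.6, chr3:18071950-18243338, minus strand), whose product hydroxylates oxysterols on the way to bile acids and to ligands of immune-cell receptors, had 15.7, 15.0 and 15.6 CPM in Control. It had 73.5, 78.2 and 74.7 CPM in Ad-OSCAR and 101, 98.9 and 92.8 in Ad-OSCAR + 5-ASA. Here the treated cultures were the highest, again without overlap. The log2 fold change was 2.29 with OSCAR (SE 0.06, adjusted p = 1.54e-16), and with 5-ASA *Cyp7b1* rose a further 1.29-fold (log2 fold change 0.37, SE 0.05, adjusted p = 1.79e-05) to 6.33-fold above Control.

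The drug thus moved the enzymes in opposite directions. The ratio of *Ch25h* to *Cyp7b1* TPM within a culture does not depend on library scaling, and each gene has 1 transcript model. It was 1.3, 1.21 and 1.24 in Control, 2.43, 2.31 and 2.29 in Ad-OSCAR and 1.48, 1.49 and 1.68 in Ad-OSCAR + 5-ASA. The Ad-OSCAR cultures were above all others, and the treated cultures were above Control. An exact two-sided permutation test of the log ratio gave p = 0.1 for Ad-OSCAR against Control and p = 0.1 for Ad-OSCAR + 5-ASA against Ad-OSCAR, which is the smallest p that 3 cultures against 3 allow.

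*Rora* (ENSMUSG00000032238.17, chr9:68653786-69388246, plus strand) encodes RORα, a receptor of the circadian clock that also takes part in cartilage breakdown. It had 71.5, 75.2 and 76.4 CPM in Control, 81.2, 79.3 and 87.9 in Ad-OSCAR and 96.5, 109 and 94.5 in Ad-OSCAR + 5-ASA. By counts the groups stood in that order without overlap. The log2 fold changes were small, at 0.16 with OSCAR (SE 0.06, adjusted p = 0.0293) and 0.27 with 5-ASA (SE 0.06, adjusted p = 0.00277). The call for OSCAR was lost without Control replicate 1 (0.13, adjusted p = 0.133), Control replicate 2 (0.16, adjusted p = 0.0539) or Ad-OSCAR replicate 3 (0.11, adjusted p = 0.13).

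Per length the picture for *Rora* was different. Its TPM was 15.4, 16.4 and 17.1 in Control, 15.9, 15.2 and 18.1 in Ad-OSCAR and 16.5, 19.5 and 18.7 in Ad-OSCAR + 5-ASA, with all groups overlapping. On the log2(TPM + 1) scale limma gave a difference of 0.01 with OSCAR (adjusted p = 0.965) and 0.14 with 5-ASA (adjusted p = 0.3), so neither count-based call held. The transcript length that RSEM assigned to *Rora* differed at the same time. It was 7820, 7776 and 7518 bases in Control, 8863, 8782 and 8434 in Ad-OSCAR and 9281, 8943 and 8265 in Ad-OSCAR + 5-ASA, and all Control cultures were below all others. The assigned length is the mean over the 6 annotated *Rora* transcripts weighted by their estimated share. The antisense RNA *Gm15511* shares 82 exon bases with *Rora*.

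**Figure D3:**
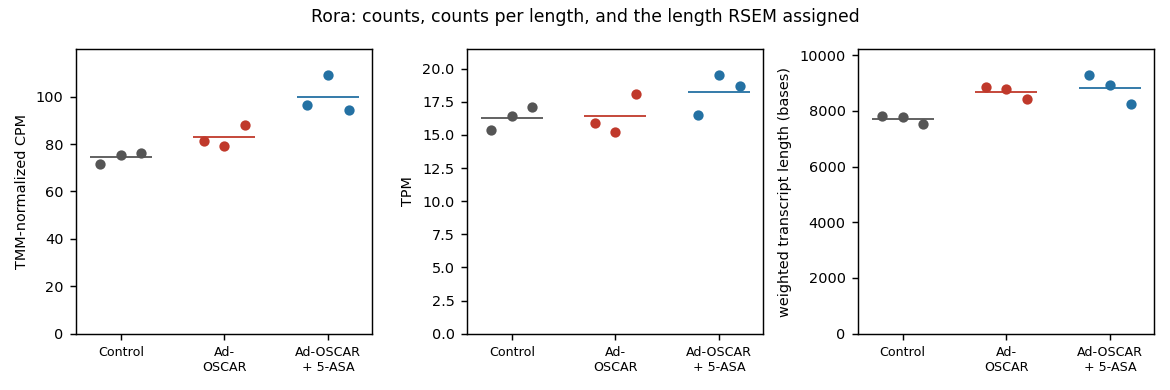
*Rora* in the 9 cultures as TMM-normalized CPM (left), TPM (middle) and weighted transcript length in bases (right), with points for cultures and lines for group means. CPM was lowest in Control and highest in Ad-OSCAR + 5-ASA, whereas the TPM values of the groups overlapped and the assigned length was 7518 to 7820 bases in Control and 8265 to 9281 bases in the other cultures.

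The order of the 10 genes by level, which is comparable between genes only per length, was rearranged by OSCAR. In Control, *Nr1h2* (74.5 TPM) and *Lpcat3* (62.5 TPM) led and overlapped each other. The next 6 genes, *Rora*, *Ch25h*, *Nr1h3*, *Abca1*, *Cyp7b1* and *Mylip*, lay between 16.3 and 12.1 TPM, each overlapping its neighbour. *Apoe* (4.90 TPM) and *Abcg1* (0.51 TPM) followed without overlap. In Ad-OSCAR, *Ch25h* led at 150 ± 2.6 TPM (SD, n = 3), followed by *Nr1h2* at 90.0, *Cyp7b1* at 64.0, *Lpcat3* at 47.5, *Abca1* at 35.1 and *Rora* at 16.4, with no overlap between neighbours. *Mylip* (14.5) and *Nr1h3* (13.3) overlapped, and *Apoe* (6.30) and *Abcg1* (3.52) were again last. In Ad-OSCAR + 5-ASA, *Ch25h* stayed first at 120 ± 5.59 TPM, and *Nr1h2* (78.5) and *Cyp7b1* (77.7) no longer separated. *Abcg1* was last in all groups. *Saa3*, an acute-phase gene, took 3.12% to 3.22% of all TPM in Control, 12.7% to 13.3% in Ad-OSCAR and 14.3% to 15.2% in Ad-OSCAR + 5-ASA. TPM has the same sum in each culture, so this share enters the TPM of the other genes. Against Control, the median log2(TPM + 1) difference over all tested genes was 0.0325 in Ad-OSCAR and -0.0519 in Ad-OSCAR + 5-ASA.

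Further LXR targets were taken from a list of 16, of which 10 passed the filter on low counts. With OSCAR 4 of the 10 rose and 6 fell, beside 32.7% and 32.2% of all tested genes. *Arl4c*, *Abcg4*, *Smpdl3a* and *Pltp* rose by 1.16, 0.87, 0.63 and 0.48 on the log2 scale. The other 6 fell. The desaturase genes *Scd1* and *Scd2* had log2 fold changes of -1.65 and -1.64 (SE 0.04 each), *Srebf1*, the gene of the transcription factor that drives fatty acid synthesis, -1.09 (SE 0.07), the fatty acid synthase gene *Fasn* -0.82, the lipase gene *Lpl* -0.81, and *Mertk*, a receptor for dying cells, -0.75. The median of the list was -0.78, against 1.96 for *Abca1* and *Abcg1* and 0.02 over all tested genes.

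With 5-ASA 5 of these 10 targets rose and 0 fell, both by edgeR and by DESeq2. Over all tested genes edgeR called 10.4% higher and 7.38% lower. At an unadjusted p below 0.05 the counts of the targets were 7 and 0 by either tool. The 5 called by edgeR included *Scd2* (0.33, adjusted p = 1.09e-05), *Pltp* (0.33, adjusted p = 0.00216) and *Scd1* (0.29, adjusted p = 0.000129). *Srebf1* had a log2 difference of 0.07 (adjusted p = 0.589). With total-count scaling 3 of the 10 rose and 0 fell. On the log2(TPM + 1) scale *Scd2* was the only one still called, while *Pltp* (0.23, adjusted p = 0.0668), *Smpdl3a* (0.16, adjusted p = 0.176), *Arl4c* (0.10, adjusted p = 0.41) and *Scd1*, whose sign changed (-0.03, adjusted p = 0.829), were not. Those of the further targets that passed with the drug under these 3 scalings did so in the direction opposite to *Abca1* and *Abcg1*.

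**Figure D4:**
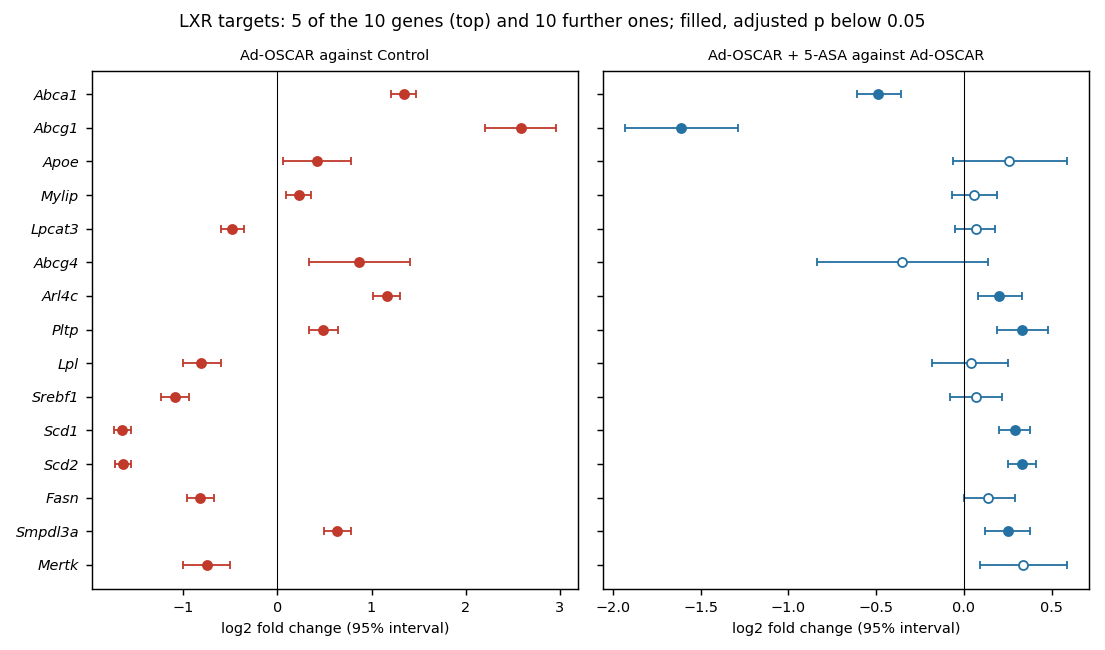
Log2 fold change with 95% interval of 15 LXR targets, the first 5 rows being genes of the set of 10 and the other 10 rows the further targets that could be tested, for Ad-OSCAR against Control (left) and Ad-OSCAR + 5-ASA against Ad-OSCAR (right). Filled points have an adjusted p below 0.05. On the left *Abcg1* (2.59) and *Scd1* (-1.65) lie at the ends; on the right *Abcg1* and *Abca1* are the only filled points below 0, with the TMM scaling used.

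Of 10 tested heterodimer partners, corepressors and coactivators of LXR, 4 rose and 3 fell with OSCAR. Over all tested genes 32.7% were called higher and 32.2% lower in that comparison. With 5-ASA 0 were called by edgeR with TMM or by DESeq2, whereas edgeR called 10.4% of all tested genes higher and 7.38% lower. At an unadjusted p below 0.05 edgeR gave 1 higher and 1 lower and DESeq2 1 higher. The corepressor gene *Ncor1* rose by 0.36, *Ep300* (a histone acetyltransferase) by 0.39, and the coactivator gene *Ncoa3* fell by 0.52 on the log2 scale. With total-count scaling 6 rose and 1 fell with OSCAR, and 0 rose and 2 fell with 5-ASA. The retinoid X receptor genes *Rxra* and *Rxrb* had log2 fold changes of -0.20 and 0.20, and *Rxra* did not pass with total-count scaling (-0.07, adjusted p = 0.28).

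Genes that make, break down or sense oxysterols besides *Ch25h* and *Cyp7b1* numbered 13, with 10 tested. With OSCAR 4 rose and 3 fell, beside 32.7% and 32.2% of all tested genes. *Hsd3b7*, which acts after CYP7B1 in bile acid synthesis, rose by 0.82 (SE 0.09) and, like *Ch25h*, was lower with 5-ASA (log2 fold change -0.27, SE 0.08, adjusted p = 0.0282). *Cyp39a1*, another oxysterol hydroxylase gene, fell by 0.86 (SE 0.15). *Insig1*, whose product holds the sterol sensor SCAP in the endoplasmic reticulum, fell by 1.00 (SE 0.05) with OSCAR and rose by 0.26 (SE 0.06, adjusted p = 0.00308) with 5-ASA, a call that was lost on the log2(TPM + 1) scale (0.17, adjusted p = 0.0761). *Gpr183*, the gene of the receptor for the oxysterol that CH25H and CYP7B1 make together, was too low to test, with a mean of at most 0.0233 TPM in any group.

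Of 17 tested genes of cholesterol storage and transport, 8 rose and 4 fell with OSCAR, and 7 rose and 1 fell with 5-ASA. Among all tested genes 32.7% rose and 32.2% fell with OSCAR, and 10.4% rose and 7.38% fell with 5-ASA. The HDL receptor gene *Scarb1* had a log2 fold change of -1.39, *Cav1*, the gene of the membrane-coat protein caveolin, one of -2.12, and the transporter gene *Abca7* one of 1.19 (SE 0.08). The 1 gene lower with 5-ASA was *Npc1*, which exports cholesterol from lysosomes (log2 fold change -0.24, SE 0.05, adjusted p = 0.00338) and which is named here after its value was seen. With 5-ASA *Scarb1* rose by 0.32, *Stard5* by 0.30 and *Gramd1a* by 0.26. With total-count scaling the counts for 5-ASA were 5 higher and 3 lower, and on the log2(TPM + 1) scale 2 higher and 1 lower. *Gramd1a* was among the genes no longer called on that scale (0.13, adjusted p = 0.253).

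The lipoprotein receptors, some of which MYLIP removes from the cell surface, included 7 tested genes, of which 3 rose and 4 fell with OSCAR. The shares over all tested genes were 32.7% higher and 32.2% lower. *Vldlr*, the gene of the very-low-density lipoprotein receptor, fell by 0.38 on the log2 scale with OSCAR (SE 0.05, adjusted p = 2.21e-06) and rose by 0.32 with 5-ASA (SE 0.05, adjusted p = 0.000167). On the TPM scale its difference with 5-ASA was 0.11 (adjusted p = 0.268). The scavenger receptor genes *Cd36* and *Olr1* rose from 1 to 5 and 0 to 1 counts in Control to 33 to 37 and 35 to 48 in Ad-OSCAR, and no fold is given at such counts.

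Among 6 other lysophospholipid acyltransferase genes, 1 rose and 3 fell with OSCAR, beside 32.7% and 32.2% of all tested genes. The log2 fold changes were -2.58 for *Mboat1* (SE 0.21), -1.58 for *Lpcat1* (SE 0.06) and -0.90 for *Mboat2* (SE 0.07). With 5-ASA *Lpcat1* rose by 0.28 (adjusted p = 0.00287), which was 0.04 (adjusted p = 0.824) on the TPM scale.

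The REV-ERB genes *Nr1d1* and *Nr1d2*, repressors of the clock that bind the same DNA elements as RORα, had log2 fold changes of 0.13 (adjusted p = 0.12) and 0.56 with OSCAR and of -0.51 and -0.19 with 5-ASA (adjusted p = 7.8e-05 and 0.025).

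Macrophages export cholesterol through *Abca1* and *Abcg1* and express *Ch25h*, so their markers are given beside these genes. Of 16 macrophage markers 5 could be tested, of which 3 rose and 1 fell with OSCAR and 2 fell with 5-ASA. Among all tested genes 32.7% were higher and 32.2% lower with OSCAR, and 10.4% higher and 7.38% lower with 5-ASA. *Cd68* (32 to 50 counts in Control, 201 to 240 in Ad-OSCAR) and *Cd14* were higher with OSCAR and lower with 5-ASA, as *Abca1* was, with log2 fold changes of 2.06 and 1.07 and of -0.38 and -0.29. *Lyz2* rose by 0.43 with OSCAR and had a difference of -0.05 with 5-ASA (adjusted p = 0.84). *Mrc1* had a log2 fold change of -0.82 with OSCAR and -0.17 with 5-ASA (adjusted p = 0.712), and *Csf1r* had differences of -0.47 and 0.48 (adjusted p = 0.233 and 0.344). The summed level of the list was 20.5 to 25.2 TPM in Control, 49.3 to 51.8 in Ad-OSCAR and 38.0 to 41.2 in Ad-OSCAR + 5-ASA. Several defining markers were at or near 0, with 0 counts of *Cd163* and *C1qa* in every culture, 0 to 3 of *Adgre1* and 0 to 2 of *Ptprc* and *Itgam*. Others were low but present, with 12 to 29 counts of *Csf1r* and 20 to 46 of *Mrc1*, beside 21 to 25 of *Abcg1* in Control. Of 7 fibroblast and synovial markers 2 rose and 5 fell with OSCAR, and 4 rose and 1 fell with 5-ASA. The greatest rises with the drug were those of *Thy1* (log2 fold change 0.80) and *Col1a2* (0.60). Of the adipocyte and endothelial markers, 1 of 5 each could be tested, and of the erythroid markers 0 of 5. The endothelial gene *Tek* (8 to 16 counts in Control, 45 to 70 in Ad-OSCAR, 32 to 42 in Ad-OSCAR + 5-ASA) moved in the directions of *Abca1* and *Abcg1*, with log2 fold changes of 1.88 with OSCAR (adjusted p = 3.2e-06) and -0.69 with 5-ASA (adjusted p = 0.0298). The adipocyte gene *Fabp4* rose by 1.25 with OSCAR and had a difference of -0.06 with 5-ASA (adjusted p = 0.669). The part of other cell types in the changes of the 10 genes was not tested.

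The genes whose log2 CPM over the 9 cultures was most like that of *Abca1* among 13267 genes were *Exoc4*, *Retreg3* and *Afg3l2* (Pearson r 0.996 to 0.995). For *Abcg1* they were *Dhx38*, *Robo2* and *B4galt7* (r 0.988 to 0.987), and for *Ch25h* they included *Oscar* and *Bcl2l1* (r 0.9997 and 0.9993). These values describe 9 cultures that fall into the 3 groups and therefore mostly the differences between groups.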

How the data were processed

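RNA-seq of 9 mouse chondrocyte cultures (3 per group, grouped by the sample labels) was analysed. Per the submitters' processing notes and the study's methods, libraries were stranded mRNA libraries read as paired 100 base reads, trimmed, aligned to GRCm38 with STAR 2.7.1a and quantified with RSEM 1.3.1. The reporting summary of the study names another RSEM version, and the strand setting is not given in the sources used here. The authors deposited RSEM's estimated counts per gene, unscaled, together with TPM, and each deposited gene also has a weighted transcript length in bases, which moves with the estimated isoform shares. Total counts were 19733448 to 28192740 per culture, and their number limits the precision of low genes such as *Abcg1* and *Apoe*. Symbols and positions were taken from GENCODE M21 (55144 of 55471 identifiers matched).

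Here, estimated counts were rounded to whole numbers and tested in R 4.3.3 with edgeR 4.0.16 (TMM, filterByExpr, quasi-likelihood F test, 1 fit of all 9 cultures with 6 residual degrees of freedom, biological coefficient of variation 5.11%), with Benjamini-Hochberg adjustment over 15362 genes and a threshold of 0.05. The fold limits of the study's methods were also applied. TPM was tested with limma 3.58.1 on log2(TPM + 1), a scale that understates changes of low genes. The procedure was tested on simulated counts. The alternatives were DESeq2 1.42.0, RLE factors, no filter, at least 10 counts in every culture, a replicate block, a fit of the groups compared alone, each culture left out in turn, limma on TPM with pseudocounts of 1 and 0.1 and without a filter, and, chosen after seeing the data, TPM rescaled without *Saa3* and scaling to the total count.

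The 10 genes and the gene lists were chosen with earlier results of these data known, and the lists are described by counts and medians only. Besides the 10 genes, the text names up to 3 called genes with the greatest absolute log2 fold change per list and comparison, the 3 genes most like *Abca1*, *Abcg1* and *Ch25h*, *Oscar* and markers. Further list members stand beside a count and were picked with their values known. Promoter windows were from RefSeq (GRCm38.p6) and searched in Python 3.11.15. Figures were made with matplotlib 3.10.9. A few genes that this rule names are not reported here. No explanation was tested.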

Additional observations from a re-analysis of the deposited data

How the results depend on the processing

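Of 600 values of the 10 genes under 20 alternatives each in 3 comparisons, 562 kept their side of the threshold and, where called, their direction, 36 were no longer called, 2 became called and 0 reversed a call. *Ch25h*, *Cyp7b1*, *Abca1*, *Mylip* and *Lpcat3* kept every call they had. In *Abcg1*, the log2 fold change with OSCAR ranged from 1.57 to 2.72 and with 5-ASA from -2.03 to -1.33, all called, while its difference between treated and Control cultures did not pass on any TPM scale. *Nr1h2* in treated against Control cultures (0.19, adjusted p = 0.0401) was lost in 8 alternatives, 5 of which left out 1 culture (Control replicates 1 and 2, Ad-OSCAR replicate 1, Ad-OSCAR + 5-ASA replicates 1 and 3; adjusted p = 0.0811, 0.262, 0.0514, 0.11 and 0.192). *Nr1h3* passed there on the TPM scale (-0.27, adjusted p = 0.0417). Without a fold limit, 9 genes in place of 3 passed for OSCAR and 5 in place of 1 for 5-ASA. With unfiltered TPM, 5 of the 10 genes in place of 9 were called in treated against Control cultures, and 1249 of all genes in place of 2732 between the Ad-OSCAR groups, where TPM rescaled without *Saa3* gave 1677. The cause of these shifts was not tested. Leaving out 1 culture gave 7 to 9 of the 10 genes for OSCAR, 5 to 5 for 5-ASA and 8 to 9 against Control, and 9319 to 10155, 1882 to 2751 and 9007 to 9794 of all genes. The median log2 fold change of all genes with OSCAR, 0.02 with TMM, was 0.149 with total-count scaling and 0.157 with rescaled TPM. The replicate numbers did not pair the cultures (correlations of same-numbered deviations -0.0724 to 0.0402), and with the replicate block 9, 5 and 9 of the 10 genes and 9882, 2500 and 9555 of all genes were called. Depth limits *Abcg1* (21 to 25 counts in Control) and *Apoe* (42 to 66).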
